A study of Mus musculus with 22 samples.

Results

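The genes described here are 10 components of the muscle sarcomere, chosen by name as a group of scaffold and Z-disc genes: Acta1, Ttn, Neb, Actn2, Actn3, Myom1, Myom2, Tcap, Myot and Mybpc2. All 10 were found among the 55487 gene identifiers of the count tables of 22 BAT (brown adipose tissue) libraries, each from 1 mouse. An untreated cohort held 5 WT and 5 CPEB2-KO mice aged 21 to 25 weeks, and an AAV cohort held 12 mice, 3 for each genotype and virus: AAV-GFP in WT and in KO mice, and AAV-PRDM16 in WT and in KO mice. AAV mice had been injected in the interscapular BAT at 16 weeks with 20000000000 vector genomes in 30 µl of PBS, carrying either GFP or flag-tagged PRDM16, and their BAT was taken 9 weeks later, at 25 weeks by the labels. All mice were labelled male, had a C57BL/6 background and were fed chow, and WT and KO mice came from crosses of heterozygotes. By the paper, food was withheld from the untreated mice for several hours before their BAT was taken. It names no such step for the AAV mice. The KO of Cpeb2, which encodes an RNA-binding regulator of translation, is global and not restricted to adipocytes.

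The sarcomere is the repeating contractile unit of striated muscle. Actin thin filaments are anchored in the Z-disc by α-actinin, myosin thick filaments are held at the centre by the M-band, and titin runs from one to the other as an elastic ruler. Brown adipocytes share an embryonic lineage with skeletal muscle, and PRDM16 is a transcriptional regulator that favours the brown fat fate, so sarcomere transcripts in BAT have been read as a sign of muscle character. Mature brown adipocytes contain no sarcomeres.

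The members fall into 4 roles. Acta1 (skeletal α-actin) and Neb (nebulin, which lines the thin filament) are parts of the thin filament. Actn2 and Actn3 (the α-actinins of the Z-disc, Actn3 being restricted to fast fibres), Tcap (telethonin, which joins titin ends) and Myot (myotilin, an α-actinin partner) are Z-disc genes. Ttn encodes titin, Myom1 and Myom2 encode the myomesins that crosslink the M-band, and Mybpc2 encodes the fast isoform of myosin-binding protein C on the thick filament. On GRCm38, Acta1 lies on chromosome 8 at 123891769 to 123894751 and Myom2 on chromosome 8 at 15057653 to 15133541. Ttn lies on chromosome 2 at 76703980 to 76982547 and Neb on chromosome 2 at 52136647 to 52378474. Actn2 lies on chromosome 13 at 12269426 to 12340760, Actn3 on chromosome 19 at 4861216 to 4877909 and Tcap on chromosome 11 at 98383811 to 98384953. Myom1 lies on chromosome 17 at 71002633 to 71126856 and Mybpc2 on chromosome 7 at 44501699 to 44524656. Their annotated exons, merged over transcripts, span from 948 bases in Tcap to 116825 bases in Ttn.

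The 3 upstream sequences are shown because their genes mark the extremes of the pattern below: Acta1 was among the members that varied most between libraries, Ttn moved with it, and Myom1 was counted in every library. Each is the 250 bases before the RefSeq transcription start (GRCm38.p6), written 5′ to 3′ on the gene's strand: chr8:123894776-123895025 on the minus strand for Acta1, chr2:76982548-76982797 on the minus strand for Ttn, and chr17:71019307-71019556 on the plus strand for Myom1, a start that lies inside the annotated gene. Capitals mark matches to the CArG box bound by serum response factor, the MEF2 site, or the letters CATTCC (the MCAT element bound by TEAD factors), searched on both strands.
Acta1: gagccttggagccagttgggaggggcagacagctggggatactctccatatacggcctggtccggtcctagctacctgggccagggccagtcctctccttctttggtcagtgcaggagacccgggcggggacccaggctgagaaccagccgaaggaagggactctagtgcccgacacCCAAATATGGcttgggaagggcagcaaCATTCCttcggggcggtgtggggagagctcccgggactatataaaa
Ttn: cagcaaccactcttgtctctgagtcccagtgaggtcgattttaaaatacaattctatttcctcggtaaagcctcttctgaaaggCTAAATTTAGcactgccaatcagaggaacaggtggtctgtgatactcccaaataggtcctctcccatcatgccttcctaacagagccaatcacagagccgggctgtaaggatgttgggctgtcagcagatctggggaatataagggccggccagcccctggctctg
Myom1: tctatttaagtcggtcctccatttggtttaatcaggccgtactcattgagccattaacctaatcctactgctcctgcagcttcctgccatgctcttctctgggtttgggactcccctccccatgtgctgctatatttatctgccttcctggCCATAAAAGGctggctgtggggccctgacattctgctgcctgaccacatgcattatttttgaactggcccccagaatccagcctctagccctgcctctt

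The CArG box began at position -73 in Acta1 and at -99 in Myom1, counted back from the start, the MCAT letters at -46 in Acta1, and the MEF2 site at -166 in Ttn. Of the 5 members whose windows were scanned (these 3 with Actn2 and Mybpc2), 2 held a CArG box, 2 held CATTCC and 1 held a MEF2 site, and all 5 held the E-box letters CANNTG. Among 32817 windows of the same length before RefSeq starts, a CArG box was found in 1.47%, CATTCC in 12.6%, a MEF2 site in 2.92% and CANNTG in 66.2%. In the 3 sequences shown no 2 of these matches overlapped. Windows for Neb, Actn3, Myom2, Tcap and Myot were not used here.

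Library depth and labels bear on every value below. The tables held 55320927 to 162721202 counted reads per library, and levels are given as CPM, counts divided by the TMM-adjusted library size and put on a common per-library scale. Since the cohorts were scaled apart, levels are set side by side between them but not tested. In the untreated cohort Cpeb2 stood at 7.69 to 14.3 CPM in WT, and 4 of the 5 mice labelled KO had 2.10 to 5.78 CPM, whereas the level in labelled KO mouse 1, at 11.7 CPM, was among those of the WT mice. In the AAV cohort Cpeb2 was 4.33 to 5.55 CPM in the 6 KO and 10.5 to 14.0 CPM in the 6 WT libraries, and Prdm16 was 45.9 to 128 CPM after AAV-PRDM16 against 23.9 to 40.2 CPM after AAV-GFP. Y-linked transcripts were nearly absent from 6 untreated libraries (WT mice 3 and 5 and labelled KO mice 1, 3, 4 and 5), whose 4 Y-linked genes summed to at most 1.17 CPM with Xist at 104 CPM or more, although all mice were labelled male. No 2 libraries of a group agreed within counting noise.

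The first comparison asked whether loss of CPEB2 alters sarcomere transcripts in untreated BAT. The members' levels separated individual mice by far more than they separated the labelled genotypes. They were high in WT mouse 3 and in labelled KO mice 1 and 2, intermediate in labelled KO mouse 5 and low in the other 6 mice, so that high and low libraries occurred under both labels (the plot of CPM by library). Summed over the 10 members, CPM was 1317 in WT mouse 3, 2469 and 2774 in labelled KO mice 1 and 2, 464 in labelled KO mouse 5, and 15.1 to 88.9 in the rest. In labelled KO mouse 2 the members took 0.408% of all counted reads, and in labelled KO mouse 4 only 0.00138%.

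**Figure D1:**
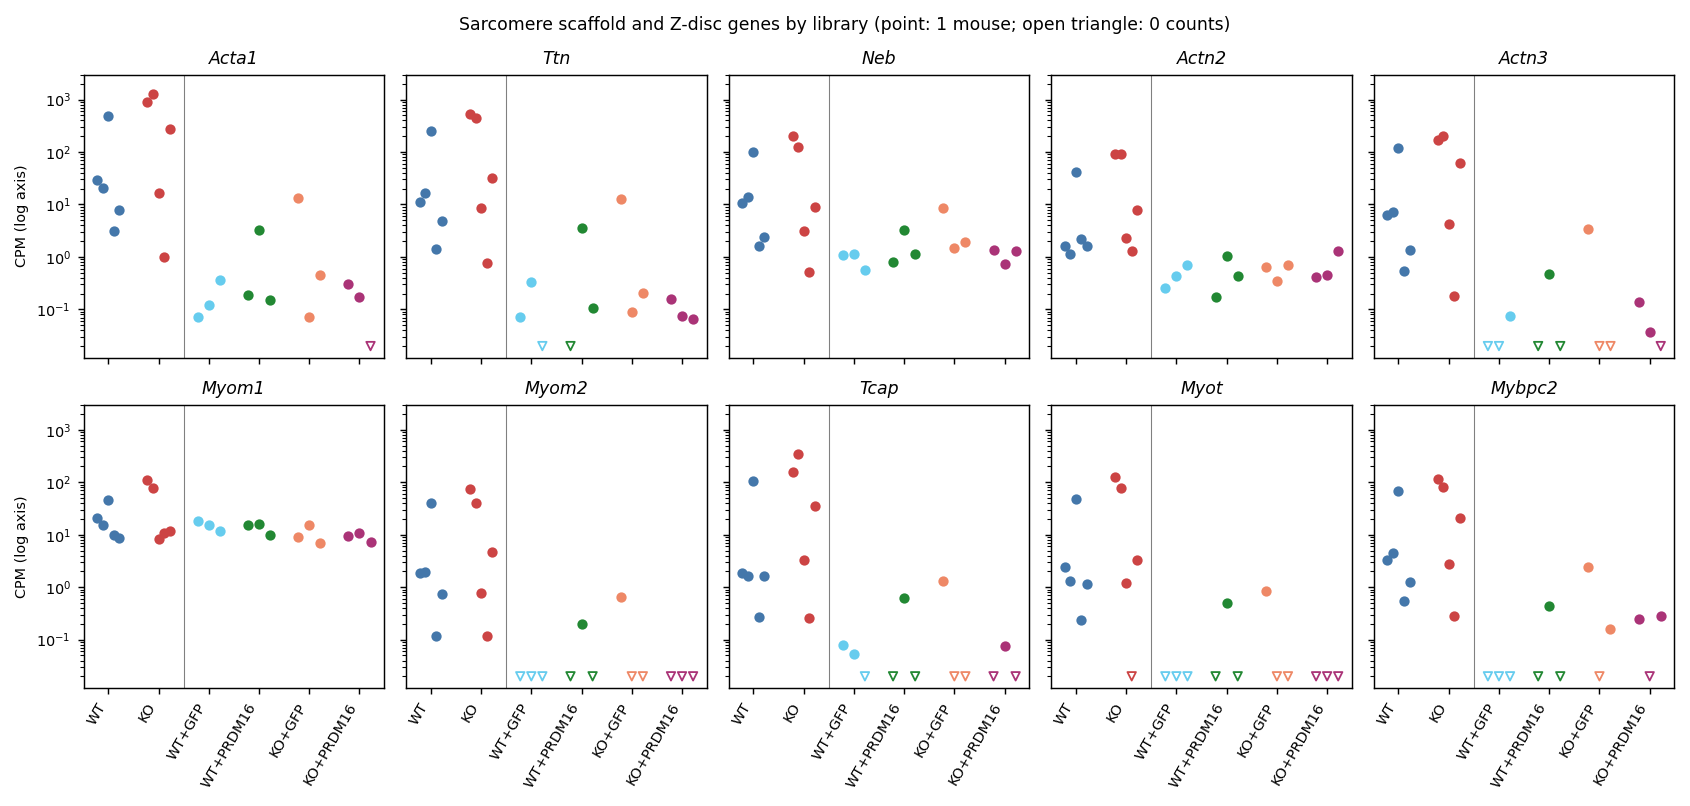
CPM of each of the 10 members (log axis) in every library, grouped as WT, labelled KO and the 4 AAV groups, with 1 point per mouse in order of mouse number and open triangles for libraries with 0 counts. WT mouse 3 and labelled KO mice 1 and 2 stand highest in the untreated cohort for every member, while Myom1 keeps 6.88 to 108 CPM in all 22 libraries.

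Both thin filament genes differed widely between mice. Acta1 stood at 29.0, 20.8, 495, 3.10 and 7.69 CPM in WT mice 1 to 5, and at 892, 1292, 16.8, 1.01 and 276 CPM in labelled KO mice 1 to 5. Neb, in the same order, stood at 10.5, 13.9, 100.2, 1.60 and 2.40 CPM in WT and at 201, 123, 3.10, 0.516 and 9.02 CPM in labelled KO mice. For both genes the highest WT library exceeded 3 of the 5 labelled KO libraries, and the lowest library of all was labelled KO mouse 4. Between the highest and the lowest of the 10 libraries Acta1 differed by 1276-fold and Neb by 389-fold.

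Titin followed the thin filament. Ttn stood at 10.9, 16.3, 256, 1.43 and 4.84 CPM in WT and at 533, 455, 8.57, 0.774 and 32.5 CPM in labelled KO mice, a 688-fold range. Per kilobase of exon, the scale on which genes can be compared, labelled KO mouse 1 held 4.56 CPM per kb of Ttn, 7.56 of Neb and 581 of Acta1, so Acta1 was by far the most abundant of these 3. The merged exons of Ttn include alternative ones that few transcripts carry, which lowers its level on this scale.

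Among Z-disc genes, Tcap had the largest range of the members that were counted in every untreated library, 1315-fold. It stood at 1.87, 1.61, 105, 0.273 and 1.63 CPM in WT and at 157, 339, 3.33, 0.258 and 36.0 CPM in labelled KO mice. The paired α-actinins differed in their low libraries. Actn3 stood at 6.33, 7.23, 118, 0.545 and 1.37 CPM in WT and at 172, 200, 4.24, 0.179 and 62.5 CPM in labelled KO mice, whereas Actn2 stood at 1.59, 1.12, 40.9, 2.17 and 1.63 CPM in WT and at 90.4, 89.7, 2.26, 1.29 and 7.82 CPM in labelled KO mice. Actn2, which heart and all fibre types use, thus did not go below 1.12 CPM in this cohort and ranged over 80.9-fold, against 1118-fold for Actn3.

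Myot had the only untreated library without a count. It stood at 2.43, 1.30, 47.9, 0.242 and 1.14 CPM in WT and at 127, 77.3, 1.21, 0 and 3.29 CPM in labelled KO mice, where 0 counts in labelled KO mouse 4 allow up to 0.0596 CPM (3 counts). Intervals and floors of this kind cover counting error only. The same mouse was the lowest for 6 other members, Acta1, Ttn, Neb, Actn3, Tcap and Mybpc2.

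In the M-band, the 2 myomesins differed. Myom2 stood at 1.87, 1.99, 39.4, 0.117 and 0.738 CPM in WT and at 75.7, 40.7, 0.784, 0.119 and 4.66 CPM in labelled KO mice, a 648-fold range. Myom1 stood at 21.1, 15.2, 46.9, 9.72 and 8.62 CPM in WT and at 108, 76.3, 8.33, 10.7 and 11.5 CPM in labelled KO mice, so it had no library below 8.33 CPM and by far the narrowest range. Of the exon bases of Myom1, 207 (1.98%) overlap exons of Myl12a on the opposite strand, and the strand setting of the count is not given in the sources used here, so a part of Myom1 reads may belong to Myl12a. This was not tested.

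On the thick filament, Mybpc2 stood at 3.26, 4.52, 68.6, 0.545 and 1.24 CPM in WT and at 113, 81.3, 2.71, 0.278 and 20.5 CPM in labelled KO mice. It was highest in labelled KO mouse 1, whereas the fast Z-disc gene Actn3 was highest in labelled KO mouse 2. Its exons share 5.32% of their bases with Gm44646 on the opposite strand. For Ttn (with Gm13938) and Neb (with Gm13522) the shared bases come to 0.388% and 0.169%.

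No member passed the test between labels. In edgeR's quasi-likelihood test over 17869 genes, 0 of the 10 members were called at an FDR of 0.05, 0 had an unadjusted p below 0.05, and DESeq2 called 0 with 0 below 0.05. Of all 17869 genes, 0 (0%) were called by edgeR, 2836 had an unadjusted p below 0.05, and DESeq2 called 0. The fitted log2 fold change was above 0 for all 10 members, with a median of 1.77 against 0.04 over all genes, of which 51.8% were above 0. It ranged from 1.08 ± 0.74 (SE) for Myom1 (FDR 0.431) to 2.29 ± 1.69 for Tcap (FDR 0.460, edgeR). Acta1 had 2.16 ± 1.55 (FDR 0.449), Actn2 2.02 ± 1.31 (FDR 0.407, the lowest of the members) and Ttn 1.83 ± 1.53 (FDR 0.508, edgeR). The 95% interval of the log2 fold change ran from -1.20 to 5.52 for Acta1 and from -0.53 to 2.69 for Myom1, so both large differences and none at all lie inside it.

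The remaining 5 had log2 fold changes of 1.98 (Myot), 1.72 (Actn3), 1.48 (Mybpc2), 1.47 (Myom2) and 1.39 (Neb), with FDR of 0.509 to 0.596 in edgeR's test. The groups overlapped for all 10 members, and 1.4% of all genes had groups that did not overlap. At the study's looser rule of at least 2-fold higher in KO with an FDR of at most 0.5, Acta1, Actn2, Myom1 and Tcap passed, 4 of 10 members, where 6.04% of all genes passed in this direction. That count was 9 under DESeq2, 6 under RLE scaling, 5 with the replicate number as a block, and 0 with a term for Y-linked transcripts or without WT mice 1 and 2 together. With single mice left out it was 10 without WT mouse 3, 9 without labelled KO mouse 4, 4 without labelled KO mouse 3, 1 without WT mouse 4, and 0 without WT mouse 1, 2 or 5 or labelled KO mouse 1, 2 or 5. The share of all genes passing this rule was taken in the main fit only. The counts under other settings therefore cannot be read as particular to the members.

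Single mice set the size of the difference. Without WT mouse 3 the median log2 fold change of the 10 members was 4.53, 9 members had an unadjusted p below 0.05, and none was called at an FDR of 0.05 by edgeR. The share of all genes below that p was not taken without this mouse. Without labelled KO mouse 1, the one with Cpeb2 in the WT range, the median was 1.03, and without labelled KO mouse 2 it was 1.17. Among mice without Y-linked transcripts the high libraries were WT mouse 3 and labelled KO mouse 1, and among those with them labelled KO mouse 2.

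**Figure D2:**
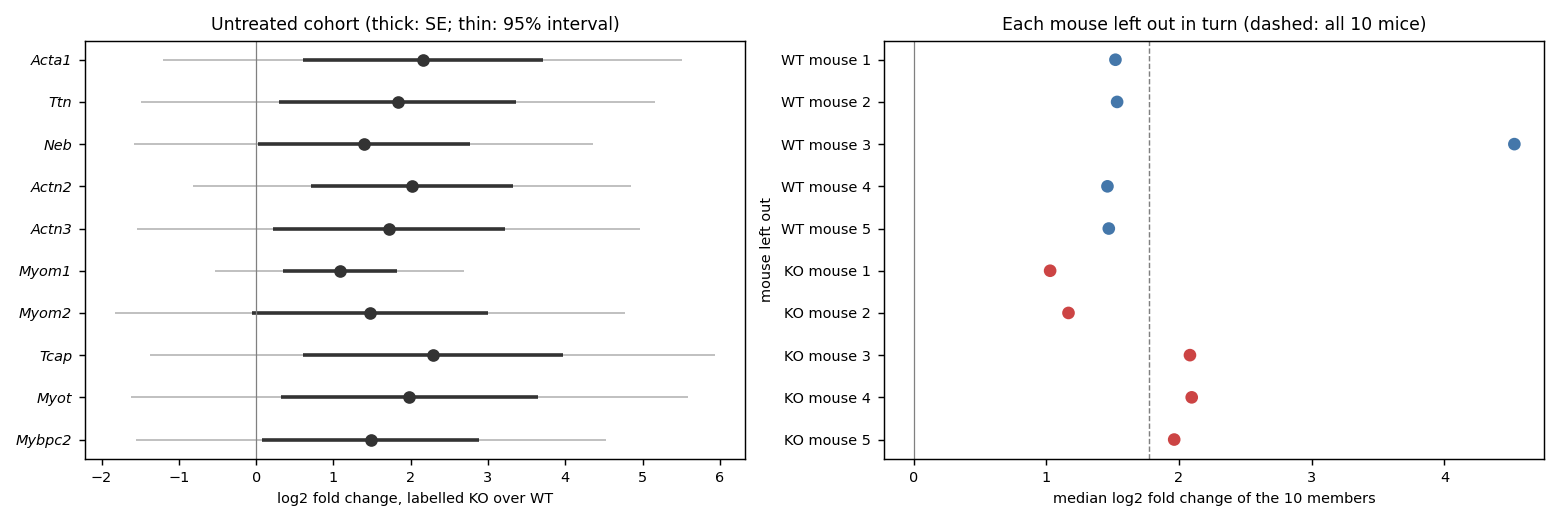
Left, log2 fold change of each member between mice labelled KO and WT, with its SE (thick) and 95% interval (thin); right, the median over the 10 members with each of the 10 mice left out in turn, beside the dashed line at 1.77 for all mice. All intervals include 0, and leaving out WT mouse 3 moves the median to 4.53.

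The members moved together with the other genes of skeletal muscle. The 24 skeletal muscle filament and calcium genes summed to 4070 CPM in WT mouse 3, 7586, 8491 and 1330 CPM in labelled KO mice 1, 2 and 5, and 114 to 285 CPM in the other 6. Ckm, the muscle creatine kinase, had 393 CPM in WT mouse 3, 586, 923 and 227 CPM in labelled KO mice 1, 2 and 5 and 0.576 to 17.6 CPM in the rest. Myh4, the fast myosin heavy chain, had 918 CPM in WT mouse 3, and Atp2a1, the fast calcium pump, had 511 CPM there. Myod1 and Myog, factors that set the muscle lineage, were counted in those 4 libraries only, at up to 0.758 and 1.99 CPM, and Myf6 reached 10.0 CPM in labelled KO mouse 1. In a bulk sample more muscle cells and more muscle RNA per cell cannot be told apart, and the part of muscle tissue in these levels was not tested.

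Markers of other cell types were summed in the same way. The 8 cardiac genes summed to 4.96 to 17.0 CPM in WT and 5.34 to 27.9 CPM in labelled KO mice. Ryr2 and Myl4 had the highest means of this list, 5.09 and 3.44 CPM over the untreated libraries. Nppa and Myl7 had 0 counts in all 10 untreated libraries. Myh6 was at 14.7 and 12.7 CPM in labelled KO mice 1 and 2, at 3.47 CPM in WT mouse 3 and at most 0.476 CPM elsewhere. The 6 smooth muscle genes summed to 48.1 to 102 CPM in WT and 49.3 to 130 CPM in labelled KO mice. The 9 lymphocyte and macrophage genes summed to 250 CPM in WT mouse 4 and 316 and 188 CPM in labelled KO mice 1 and 2, against 23.9 to 56.5 CPM in the other 7. The 6 white fat genes summed to 403 and 410 CPM in labelled KO mice 1 and 2, to 414 and 283 CPM in WT mice 4 and 1, and to 46.1 to 107 CPM in the other 6, so they were high in 2 of the 3 mice where the members were highest and in 2 mice where the members were low. The 12 brown fat genes, led by Fabp4 and Ucp1, summed to 8877 to 20255 CPM, so every library held the labelled tissue. Their part in the members' levels was not tested.

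Correlation of the members across the 10 untreated libraries was close. Pearson's r of log2 CPM over the 45 pairs ran from 0.801 to 0.996 with a median of 0.959, the highest being Acta1 with Actn3. The 9 pairs with Myom1 were the lowest as a group, with a median of 0.875. These values are descriptions over 10 libraries that share the 3 or 4 high mice, and carry no test. Among the genes most like the members' mean were Trdn (r = 0.994), Mylk2 (0.994), Tnnt3 (0.994) and Ckmt2 (0.991), followed by Myh4, Ryr1, Cox6a2, Casq1 and Smtnl1. Trdn, Ryr1 and Casq1 encode proteins of muscle calcium release. With Prdm16 the members' mean had r = -0.40 and with Ucp1 r = -0.30 over the same 10 libraries.

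The relative make-up of the members was not the same in the 4 libraries where they were high. In labelled KO mice 1 and 2 the 10 members stood at 1.03 to 3.24 times their level in WT mouse 3. In labelled KO mouse 5, Acta1 and Actn3 were at 0.558 and 0.529 times their level in WT mouse 3, and Tcap and Mybpc2 at 0.344 and 0.299 times. Ttn was at 0.127 times, Myom2 at 0.118, Neb at 0.0900 and Myot at 0.0687 times. Myom1 was at 0.246 times and Actn2 at 0.191 times. Of the members named as fast above, Actn3 stood below Acta1 only. Mybpc2 stood below Acta1, Actn3 and Tcap and above the rest. What set this order was not tested.

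**Figure D3:**
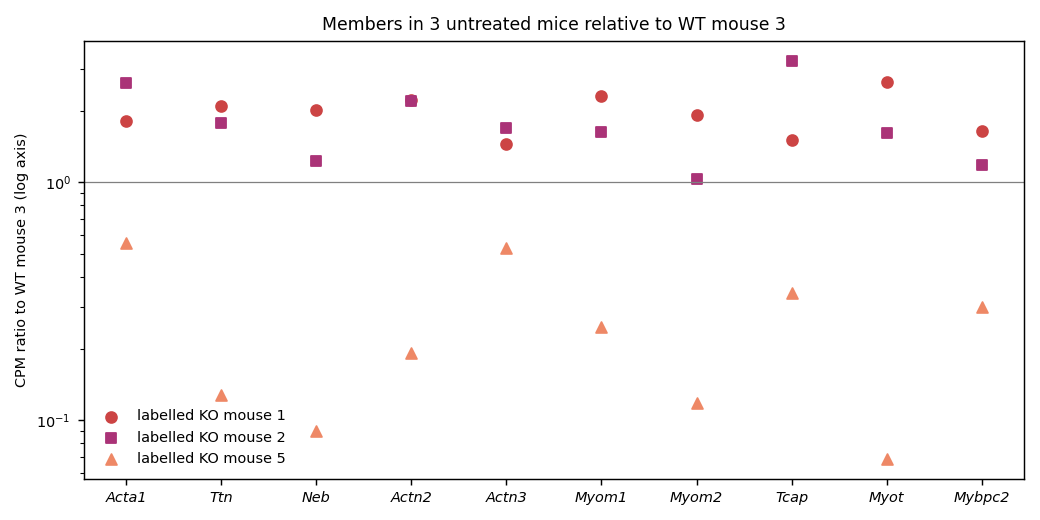
CPM of each member in labelled KO mice 1, 2 and 5 divided by its CPM in WT mouse 3 (log axis, line at equal levels, 1 point per mouse). Mice 1 and 2 lie at 1.03 to 3.24 for all members, whereas mouse 5 runs from 0.0687 for Myot to 0.558 for Acta1.

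Ratios between paired members, per kilobase of exon, also differed between these libraries. Actn3 to Actn2 was 3.78 in WT mouse 3, 2.49 and 2.91 in labelled KO mice 1 and 2, and 10.5 in labelled KO mouse 5. Myom2 to Myom1 was 0.993 in WT mouse 3, 0.827 and 0.629 in labelled KO mice 1 and 2, and 0.478 in labelled KO mouse 5. In labelled KO mouse 5, however, Myom1 was within its range in the libraries where the members were low. What set the ratio there was not tested. Tcap to Ttn was 50.4 in WT mouse 3, 36.4 and 92.0 in labelled KO mice 1 and 2, and 136 in labelled KO mouse 5. Summed over the lists of fibre type genes, labelled KO mouse 5 and WT mouse 3 had 691 and 2388 CPM of the 8 fast fibre genes and 164 and 512 CPM of the 8 slow fibre genes, and both sums were lower in labelled KO mouse 5. Atp2a2 had the highest mean CPM of the slow list. The slow sum was 301 CPM in WT mouse 1, where the members were low, so it does not track slow fibre RNA alone. The single gene Myh7, the slow myosin heavy chain, had 143 CPM in WT mouse 3, 417 and 386 CPM in labelled KO mice 1 and 2, and 17.0 CPM in labelled KO mouse 5. Acta1 to Ckm varied less, from 1.80 to 5.10 over the 9 untreated libraries with at least 100 counts of each gene. Each ratio comes from single mice, and no group test was made on them.

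Other sarcomere scaffold genes behaved as the members did in the untreated cohort. Of 37 such genes, 36 were tested, edgeR and DESeq2 each called 0 at an FDR of 0.05, and all 36 had a log2 fold change above 0, with a median of 1.73. Unadjusted p was below 0.05 for 3 of the 36 by edgeR, a smaller share than the 2836 of all 17869 genes. They were Cryab, a small heat shock protein at the Z-disc (1.54 ± 0.63, FDR 0.305), Des, the intermediate filament desmin (1.04 ± 0.43, FDR 0.305), and Xirp1, an actin-binding repair protein (3.17 ± 1.38, FDR 0.309, edgeR). By level, the list was led by Fhl1 (36.5 to 341 CPM), Des (36.1 to 193 CPM) and Mybpc1, the slow isoform of myosin-binding protein C (0 to 208 CPM). Pdlim5, a Z-disc adaptor also present in non-muscle cells, had 14.5 to 91.2 CPM and a log2 fold change of 0.27. At the looser rule 22 of the 36 passed, beside the 6.04% of all genes.

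Most paralogues of the members that serve outside skeletal muscle did not share the range. Actb had 304 to 1491 CPM and Actg1 142 to 664 CPM over the untreated libraries, Actn4 had 138 to 267 CPM, Actn1 5.22 to 24.5 CPM and Lasp1 15.4 to 67.5 CPM. The smooth muscle actin Acta2 had 7.51 to 34.5 CPM, Nebl, the nebulin relative of heart and non-muscle cells, 0.438 to 2.24 CPM, and the cardiac actin Actc1 at most 0.370 CPM, Actg2 at most 0.417 CPM and Mybpc3 at most 0.170 CPM. Actc1 was counted only in WT mice 3 and 4 and labelled KO mice 1, 2 and 5. It was thus near the floor but present in each library where the members were high or intermediate. Of the 9 tested, edgeR and DESeq2 each called 0 at an FDR of 0.05, with 0 and 1 at an unadjusted p below 0.05, and their median log2 fold change was 0.46. Reads of actin genes can be split between near-identical copies, and how multiply aligned reads were counted is not given in the sources used here. Acta1 reached 1292 CPM in a library with Actc1 at 0.370 and Acta2 at 27.0 CPM.

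The AAV cohort asked whether PRDM16 delivered to BAT changes the KO profile. Here most members were at or near 0 counts in most libraries, under either virus and either genotype. Levels stood above the rest in mouse 57 of KO + AAV-GFP and, lower, in mouse 64 of WT + AAV-PRDM16. Myom2, Tcap and Myot had too few counts for the test, and Myom2 and Myot were counted in those 2 libraries only.

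Acta1 stood at 0.0717, 0.122 and 0.358 CPM in WT + AAV-GFP mice 56, 65 and 89, at 0.187, 3.27 and 0.154 CPM in WT + AAV-PRDM16 mice 63, 64 and 80, at 13.1, 0.0718 and 0.458 CPM in KO + AAV-GFP mice 57, 64 and 69, and at 0.307, 0.176 and 0 CPM in KO + AAV-PRDM16 mice 59, 65 and 76. Ttn, in the same order of groups and mice, stood at 0.0717, 0.332 and 0 CPM, at 0, 3.56 and 0.106 CPM, at 12.7, 0.0897 and 0.208 CPM, and at 0.159, 0.0740 and 0.0668 CPM. Neb stood at 1.08, 1.16 and 0.571 CPM, at 0.795, 3.27 and 1.13 CPM, at 8.49, 1.48 and 1.94 CPM, and at 1.33, 0.731 and 1.30 CPM. In KO + AAV-GFP the high values of Acta1 and Ttn came from mouse 57 alone, and its other mice lay within the range of the WT + AAV-GFP mice for both genes except Acta1 in mouse 69.

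Actn2 stood at 0.251, 0.441 and 0.708 CPM in WT + AAV-GFP, at 0.175, 1.04 and 0.424 CPM in WT + AAV-PRDM16, at 0.655, 0.350 and 0.708 CPM in KO + AAV-GFP and at 0.416, 0.463 and 1.32 CPM in KO + AAV-PRDM16. Myom1 stood at 18.2, 15.3 and 11.8 CPM in WT + AAV-GFP, at 15.3, 16.3 and 9.84 CPM in WT + AAV-PRDM16, at 9.12, 15.6 and 6.88 CPM in KO + AAV-GFP and at 9.49, 10.6 and 7.42 CPM in KO + AAV-PRDM16. Neither gene was highest in mouse 57, where Acta1 was. Actn3 was counted in 5 of the 12 libraries (3.38 CPM in mouse 57 of KO + AAV-GFP and 0.465 CPM in mouse 64 of WT + AAV-PRDM16, at most 0.139 CPM in the rest). Mybpc2 was also counted in 5 (2.41 and 0.442 CPM in the same mice, at most 0.284 CPM in the rest), and Tcap in 5 (1.33 and 0.630 CPM, at most 0.0807 CPM in the rest).

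In all, 9 of the 12 AAV libraries had 0 counts of both Ckm and Myh4, and they show what remained of the members without those transcripts. Myom1 was counted in all 9, at 6.88 to 18.2 CPM with a median of 11.8, Neb at 0.571 to 1.94 CPM with a median of 1.13, and Actn2 at 0.175 to 1.32 CPM with a median of 0.441. Acta1 had at most 0.458 CPM, Ttn at most 0.332 CPM, Mybpc2 at most 0.284 CPM, and Actn3 and Tcap at most 0.0761 and 0.0807 CPM, while Myom2 and Myot had 0 counts, which allows up to 0.0203 to 0.0501 CPM per library (3 counts). The other scaffold genes divided likewise: of 37, 19 were counted in all 9 libraries, among them Fhl1 (39.9 to 193 CPM), Des (23.5 to 62.7 CPM), Pdlim5 (29.2 to 39.5 CPM) and the third myomesin, Myom3 (5.41 to 9.77 CPM), and 8 had 0 counts in all of them.

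**Figure D4:**
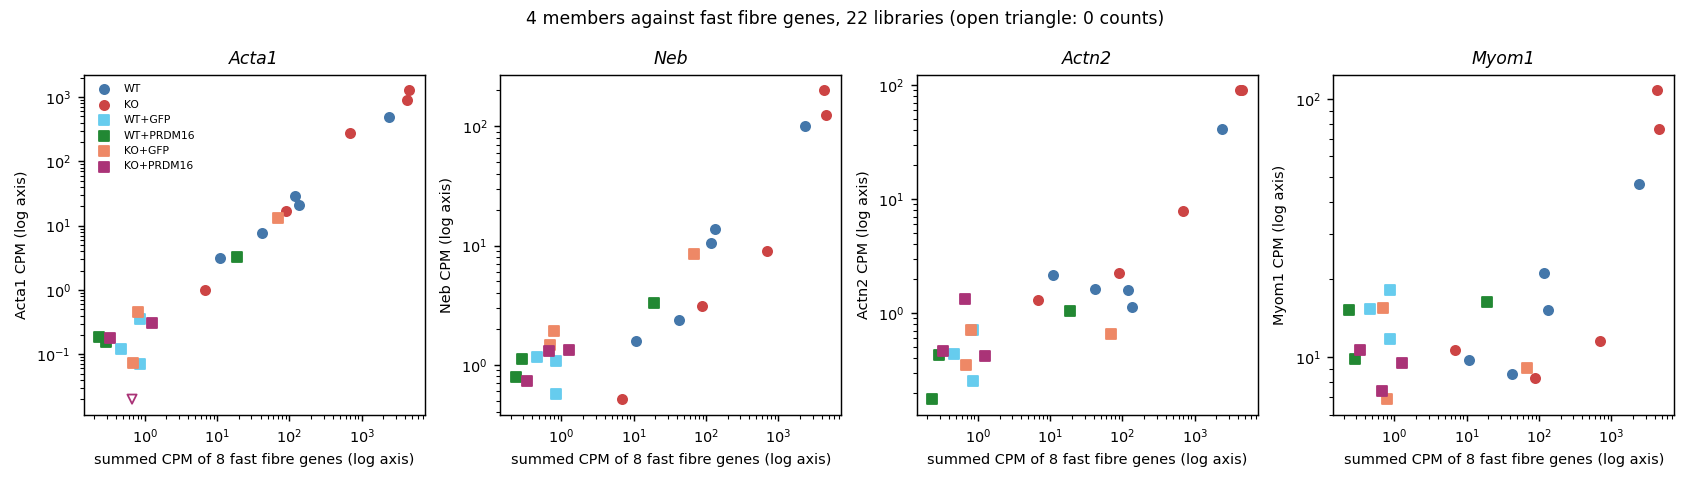
CPM of Acta1, Neb, Actn2 and Myom1 (log axes) against the summed CPM of 8 fast fibre genes that are not members, in all 22 libraries, with circles for the untreated and squares for the AAV cohort and an open triangle for 0 counts. Acta1 is higher where the fast fibre genes are higher among the libraries with more than 1.27 CPM of them, apart from single neighbours, while Myom1 stays at 6.88 to 21.1 CPM in all but the 3 highest libraries.

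In the comparison of KO + AAV-GFP with WT + AAV-GFP, which asks for the effect of genotype under the control virus, edgeR called 0 of the 7 members tested at an FDR of 0.05, where 10 of 18899 genes (0.0529%) were called, and DESeq2 called 0 of the members, with 3 below an unadjusted p of 0.05, and 238 genes. In the AAV cohort DESeq2 gave 2 of the 7 members no adjusted p, and these are not counted as lost calls. Acta1, Ttn, Neb and Mybpc2 had an unadjusted p below 0.05 by edgeR, as did 1734 of all 18899 genes. Mybpc2 had no count in WT + AAV-GFP and passed the expression filter through libraries of the other groups. Its p is therefore no separate evidence of a difference. Log2 fold changes were 4.60 ± 1.74 for Acta1 (FDR 0.451), 4.96 ± 2.06 for Ttn (FDR 0.501), 2.07 ± 0.68 for Neb (FDR 0.380), 0.29 ± 0.65 for Actn2 (FDR 0.952) and -0.52 ± 0.29 for Myom1 (FDR 0.641, edgeR). Neb was the only tested member whose groups did not overlap, 1 of 7, where 13.4% of all genes had groups apart. Without mouse 57 the log2 fold change was 0.86 for Neb (FDR 0.602) and 0.53 for Acta1 (FDR 0.929, edgeR). Mybpc2 had 0 counts in all 3 WT + AAV-GFP libraries and was at least 36.7-fold higher in KO + AAV-GFP, set against 3 counts per library. Most of its level came from mouse 57, without which that bound was 3.42-fold. The median over the 7 was 4.60, the value of Acta1, and 0.18 without mouse 57. It was 2.07 over the 5 members tested when only these 2 groups were fitted. Mybpc2 at its bound (a log2 of 5.20) lies above 4.60, so that replacement could not move the median. Actn3 and Mybpc2, 2 of the 7, were each counted in 5 AAV libraries only, at their highest in mouse 57.

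Under AAV-PRDM16 the members did not separate the genotypes either. For KO + AAV-PRDM16 against WT + AAV-PRDM16, edgeR called 0 of 7 members, with 0 at an unadjusted p below 0.05, where 9 genes (0.0476%) were called, and DESeq2 called 0 members, with 1 below 0.05, and 626 genes. No member had groups apart, beside 22.8% of all genes. Myom1 had a log2 fold change of -0.59 ± 0.29 (FDR 0.402), Acta1 -2.81 ± 1.68 (FDR 0.503), Ttn -3.56 ± 2.06 (FDR 0.485), Neb -0.63 ± 0.67 (FDR 0.733) and Actn2 0.41 ± 0.65 (FDR 0.839, edgeR). Without mouse 64 of WT + AAV-PRDM16 the log2 fold change was 0.86 for Ttn, 0.21 for Neb and 0.00 for Acta1.

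The virus itself was compared within each genotype. In WT mice, AAV-PRDM16 against AAV-GFP, edgeR called 0 of 7 members, with 0 at an unadjusted p below 0.05, and 0 of all genes (0%), 1377 of which were below 0.05, while DESeq2 called 0 members and 147 genes. No member had groups apart, beside 14.2% of all genes. Log2 fold changes were 2.70 ± 1.64 for Acta1, 3.14 ± 1.94 for Ttn, 0.88 ± 0.67 for Neb, 0.23 ± 0.65 for Actn2 and -0.13 ± 0.29 for Myom1, with FDR of 0.795 to 0.983 in edgeR's test. The median was 2.54, and -0.27 without mouse 64 of WT + AAV-PRDM16. Mybpc2 was at least 6.31-fold higher than the floor of 3 counts in WT + AAV-GFP, on the counts of mouse 64 alone.

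In KO mice, AAV-PRDM16 against AAV-GFP, edgeR called 0 of 7 members and 0 of all genes (0%), of which 1211 had an unadjusted p below 0.05, and DESeq2 called 0 members and 262 genes. Acta1, Ttn and Neb had an unadjusted p below 0.05 by edgeR, with log2 fold changes of -4.71 ± 1.78 (FDR 0.574), -5.38 ± 2.16 (FDR 0.647) and -1.82 ± 0.68 (FDR 0.573, edgeR). Neb was lower in all 3 AAV-PRDM16 libraries than in any AAV-GFP library, 1 of 7 members with groups apart, where 9.43% of all genes were apart. Without mouse 57 these log2 fold changes were -0.66 for Acta1, -0.55 for Ttn and -0.61 for Neb, each with a higher FDR. Actn2 had 0.34 ± 0.65 (FDR 0.9999) and Myom1 -0.19 ± 0.29 (FDR 0.9999, edgeR).

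KO + AAV-PRDM16 against WT + AAV-GFP sets treated KO mice beside control WT mice. EdgeR called 0 of 7 members, where 1 gene (0.00529%), Cpeb2, was called, and DESeq2 called 0 members and 157 genes. Of all genes, 1498 had an unadjusted p below 0.05 by edgeR. Myom1 was lower in all 3 KO + AAV-PRDM16 libraries (7.42 to 10.6 CPM) than in any WT + AAV-GFP library (11.8 to 18.2 CPM), with a log2 fold change of -0.72 ± 0.29, an unadjusted p below 0.05 and an FDR of 0.579 in edgeR's test. It was 1 of 7 members with groups apart, where 13.2% of all genes were apart, and its value was -0.71 without mouse 57 of KO + AAV-GFP and mouse 64 of WT + AAV-PRDM16. Acta1, Ttn, Neb and Actn2 had log2 fold changes of -0.11, -0.43, 0.25 and 0.63 with FDR of 0.892 to 0.993 (edgeR). Mybpc2 was at least 7.59-fold above the floor of 3 counts.

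The test of whether the virus effect differs between genotypes gave no call. For the interaction edgeR called 0 of 7 members and 0 of all genes (0%), of which 603 had an unadjusted p below 0.05, and DESeq2 called 0 members and 1 gene. Acta1, Ttn, Neb and Mybpc2 had an unadjusted p below 0.05, with log2 values of -7.40 ± 2.41, -8.52 ± 2.90 and -2.70 ± 0.95 for the first 3 and an FDR of 0.9998 for each (edgeR). For Mybpc2 the limit given above for the expression filter holds here too. Without mouse 57 of KO + AAV-GFP and mouse 64 of WT + AAV-PRDM16 the interaction was -0.56 for Acta1, 0.74 for Ttn and -0.65 for Neb. These 6 comparisons share their libraries, so their values are not independent of each other.

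**Figure D5:**
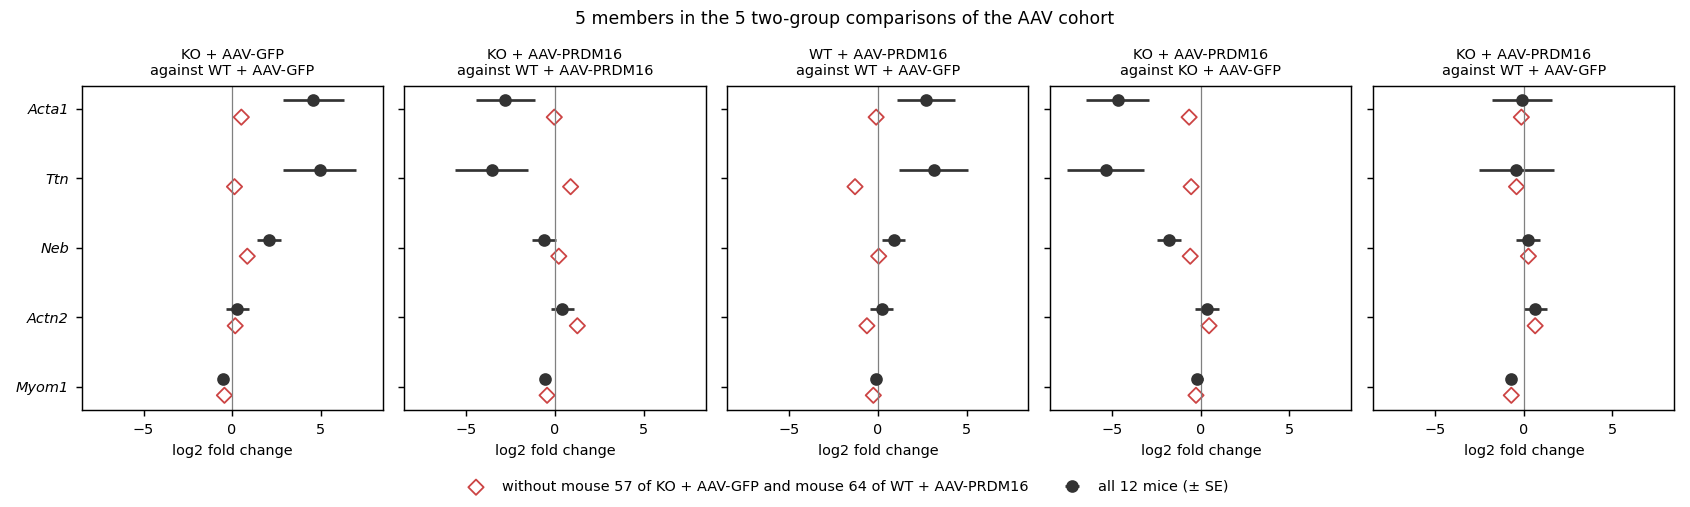
Log2 fold change of the 5 members counted in at least 10 of the 12 AAV libraries, in each of the 5 two-group comparisons, with all mice (black, ± SE) and without mouse 57 of KO + AAV-GFP and mouse 64 of WT + AAV-PRDM16 (open red). For Acta1 in KO + AAV-GFP against WT + AAV-GFP the value goes from 4.60 to 0.52, whereas Myom1 lies between -0.72 and -0.13 throughout with all mice.

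Markers of skeletal muscle were high in the same AAV libraries as the members. The 8 fast fibre genes summed to 69.6 CPM in mouse 57 of KO + AAV-GFP and 19.0 CPM in mouse 64 of WT + AAV-PRDM16, and to 0.234 to 1.27 CPM in the other 10. Ckm had 8.07 and 2.49 CPM in those mice and 0.129 CPM in mouse 59 of KO + AAV-PRDM16, with 0 counts elsewhere, and Myod1 had 0 counts in all 12. The part of muscle tissue in these values was not tested. Over the 12 libraries the 36 pairs of members without Myom1 had r of 0.27 to 0.993, and the 9 pairs with Myom1 -0.54 to 0.20. The highest was Myom2 with Myot, each counted in 2 libraries only, so it describes those 2 mice and library depth. Pairs of Actn2 with members other than Myom1 had 0.27 to 0.59. All r values of this cohort are descriptions over libraries that share the 2 high mice, with many 0 counts elsewhere, and carry no test. Among the genes most like the members' mean were Pvalb (r = 0.978), Myh4 (0.969), Ckm (0.965), Mylpf (0.910) and Myh1 (0.908), then Mybpc1, Trdn, Tnni2 and Tpm2. With Prdm16 the members' mean had r = 0.03 over these libraries, which include 6 that received AAV-PRDM16.

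Among other scaffold genes of the AAV cohort, 25 of 37 were tested. EdgeR called 0 of them in each of the 6 tests, with 0 to 5 at an unadjusted p below 0.05, beside 603 to 2594 of all 18899 genes. DESeq2 called Synpo2, a Z-disc protein, between the genotypes under AAV-GFP and Cryab between them under AAV-PRDM16, and 0 in the other 4 tests. With AAV-GFP, KO against WT, their median log2 fold change was 0.65 and 5 had groups apart, all higher in KO, beside 13.4% of all genes. Groups were apart for 4 higher and 1 lower between the genotypes under AAV-PRDM16 (22.8% of all genes), for 0 for the virus in WT (14.2%), for 2 lower for the virus in KO (9.43%), and for 4 higher and 1 lower in KO mice given AAV-PRDM16 against WT mice given AAV-GFP (13.2%). The paralogues Actb (287 to 612 CPM over the 12 libraries), Actg1 (97.6 to 213 CPM) and Actn4 (198 to 294 CPM) were highest in neither of these 2 mice. In KO + AAV-GFP against WT + AAV-GFP, Actb had a log2 fold change of 0.48 ± 0.19 (FDR 0.473) and Actg1 of 0.39 ± 0.20 (FDR 0.612, edgeR).

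The order of the members by level differed between the cohorts. By mean CPM per kb in the untreated libraries, Acta1 and Tcap led, followed by Actn3, while in AAV libraries without Ckm and Myh4 counts Myom1 led. The spread over mice within each group was larger than the difference between neighbours in these orders, except for Myom1 in the AAV cohort, whose lowest library (6.88 CPM, 0.658 CPM per kb) lay above the highest of every other member in those 9 libraries on either scale.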

How the data were processed

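RNA-seq of BAT was available as 2 deposited tables of raw read counts per Ensembl gene, 1 column per mouse, made by the authors, for 10 untreated and 12 AAV libraries. The submitters' processing notes name bcl2fastq 2.20, Trimmomatic 0.36, HISAT2 and the build GRCm38.p6. The counting tool, annotation and strand setting are not given in the sources used here. Groups came from the sample labels. Symbols, positions and exon lengths came from GENCODE M21 on GRCm38, which named 55141 of 55487 identifiers, and upstream sequences from RefSeq (GRCm38.p6).

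Counts of each cohort were filtered by expression (filterByExpr), scaled by TMM and fitted over all its groups with edgeR 4.0.16 (R 4.3.3), whose quasi-likelihood test with Benjamini-Hochberg adjustment over all genes gave every FDR. Genes were called at an FDR of 0.05. The study's looser rule was at least 2-fold with an FDR of at most 0.5. Log2 CPM used a prior count of 2, and a count of 0 was read as at most 3 counts. Scripts were tested on simulated data. Other settings tried were a replicate block, DESeq2 1.42.0, no filter, RLE scaling, TMM without muscle and mitochondrial genes, leaving out each library, and fits of fewer groups or mice.

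The members and gene lists were chosen with earlier results of these data known. All 10 members and all paralogues were named, and of the other lists some of the 6 genes with the highest mean CPM in a cohort. Genes most like the members were the 10 with the highest r. One gene that these rules name is not reported here. Xirp1, Myom3, Myh6, Myh7, Myod1, Myog, Myf6, Nppa and Myl7 were named after their values were seen. Mice with the same replicate number, their order within a group, did not deviate together (r of -0.31 to 0.19 over 23 pairs, above 0.1 in 3). Replicate numbers were therefore not taken as pairs. Beyond 1 mouse per library, the labels do not say which mice were related or handled together, and p-values measure the spread between these mice. The untreated columns carry running numbers of unstated meaning. Those of labelled KO mouse 1, labelled KO mouse 2, WT mouse 3 and WT mouse 4 follow one another in that order. The members were high in the first 3 of these and low in WT mouse 4.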

Additional observations from a re-analysis of the deposited data

Results flagged for a closer look

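In the 5 untreated WT libraries, WT mouse 3 stood apart from the other 4 for 9 of the 10 members. Its gap to the nearest WT library, as a share of the whole WT range of CPM, was 0.947 for Acta1, 0.942 for Ttn, 0.876 for Neb, 0.974 for Actn2, 0.943 for Actn3, 0.952 for Myom2, 0.985 for Tcap, 0.954 for Myot and 0.942 for Mybpc2, above Dixon's critical value of 0.710 for 5 samples. Myom1 did not pass that value, and no member did in the KO libraries. Chance flags about 1 in 20 groups of normally distributed values. The values used were CPM without a log transform, which are skewed, so that rate need not hold here. The rule was not applied to log2 CPM. The 9 members moved together, so these are not 9 separate events. Skeletal muscle genes outside the members were high in the same mouse (Ckm at 393 CPM, and Myh4 at 918 CPM), and their part was not tested.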

How the results depend on the processing

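No alternative brought any member to an FDR of 0.05, and of the fold changes tallied under an alternative (all 10 members for untreated mice, but for AAV mice only the 5 counted in at least 10 of 12 libraries), 690 kept their direction and 37 reversed it. In the untreated cohort the median log2 fold change of the 10 members ran from 1.03 to 4.53 as each mouse was left out. In the AAV cohort, leaving out each mouse gave medians of 0.18 to 5.18 for KO + AAV-GFP against WT + AAV-GFP (4.60 with all mice), -0.27 to 3.13 for the virus in WT (2.54) and -8.13 to -1.50 for the interaction (-6.67). The other medians ran from -0.98 to 0.86 between the genotypes under AAV-PRDM16 (-0.63, with 0.86 without mouse 64 of WT + AAV-PRDM16), from -2.87 to -0.29 for the virus in KO (-2.28, with -0.29 without mouse 57 of KO + AAV-GFP), and from -0.21 to 0.79 for KO mice given AAV-PRDM16 against WT mice given AAV-GFP (0.25, with -0.21 without mouse 59 and 0.79 without mouse 89). Without mouse 57 of KO + AAV-GFP and mouse 64 of WT + AAV-PRDM16, an alternative chosen after seeing the data, the first 3 medians, over the 6 members then tested, were 0.35, -0.18 and 0.36. With only the 2 groups compared, the first was 2.07, over the 5 members then tested.

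Log2 fold changes of single genes reversed as follows when each mouse was left out. Between the genotypes under AAV-GFP, Actn2 ran from -0.00874 to 0.72. Between the genotypes under AAV-PRDM16, Acta1 ran from -3.57 to 0.00097, Ttn from -4.15 to 0.86, Neb from -0.98 to 0.21 and Actn2 from -0.31 to 1.26. For the virus in WT, Acta1 ran from -0.12 to 3.60, Ttn from -1.28 to 5.12, Actn2 from -0.63 to 0.65 and Myom1 from -0.28 to 0.0637. For the virus in KO, Actn2 ran from -0.38 to 0.63 and Myom1 from -0.43 to 0.20. For KO mice given AAV-PRDM16 against WT mice given AAV-GFP, Acta1 ran from -0.88 to 0.79, Ttn from -1.003 to 1.55, Neb from -0.00733 to 0.49 and Actn2 from -0.0882 to 1.06. For the interaction, Actn2 ran from -0.60 to 0.98 and Myom1 from -0.30 to 0.33. Without mouse 57 of KO + AAV-GFP and mouse 64 of WT + AAV-PRDM16, the reversed values were 0.88 for Ttn and 0.21 for Neb between the genotypes under AAV-PRDM16, -0.10 for Acta1, -1.30 for Ttn and -0.62 for Actn2 for the virus in WT, and 0.74 for Ttn in the interaction.

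In the fit with a replicate block the untreated median was 2.31, 0 members were called, and the interaction reversed to -0.0854 for Actn2 and 0.00122 for Myom1. The block changed no call. It gave medians of 2.66 between the genotypes under AAV-GFP, -0.62 under AAV-PRDM16, 1.65 for the virus in WT, -1.61 for the virus in KO, -0.0925 for KO mice given AAV-PRDM16 against WT mice given AAV-GFP, and -4.90 for the interaction. With a term for Y-linked transcripts, also chosen after seeing the data, the untreated median was 2.16. In the AAV cohort Myom2, Tcap and Myot had too few counts for the test, and a count of 0 there allows up to 0.0203 to 0.0501 CPM per library.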
